A study of Mus musculus with 6 samples.

Results

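The proteasome genes of CT26 tumors were examined in mice given the kinase inhibitor H89 or its vehicle, NaCl. The CT26 line derives from a mouse colon carcinoma of strain BALB/c, and 500000 of its cells were placed under the skin of female BALB/c mice, 7 weeks old. H89, an inhibitor of protein kinase A and of other kinases, was given by intraperitoneal injection at 10 mg/kg in NaCl 2 times a week from day 6, and control mice received NaCl alone by the same route. Whole tumors were taken on day 14, with 3 tumors in each group, and their total RNA was sequenced on a BGISEQ-500 instrument. The groups shared strain, implanted cells, vehicle and route, and no genetic change is named for either.

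Genes were chosen by name: every symbol that starts with Psm, a letter from a to g and a number, apart from Psmb8, Psmb9 and Psmb10. Of the 23557 genes in the table, 55 matched and 52 stayed after those 3 were set aside. They comprised 16 subunits of the 20S core (8 of the alpha ring and 8 of the beta ring), 17 subunits of the 19S cap (6 ATPases and 11 non-ATPases), 5 activators named Psme, 7 assembly chaperones and 1 inhibitor. Another 4 were pseudogenes, and 2 matched in name only, since Psmc3ip and Psme3ip1 encode proteins named for a partner. An average of at least 0.5 counts per 1000000 (CPM) was reached by 47 of the 52, which were tested, and the other 5 were Psma8 and the pseudogenes.

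The proteasome is the barrel-shaped protease that degrades proteins tagged with ubiquitin. Its core is a stack of alpha rings, which gate the entrance, around beta rings, in which the subunits Psmb5, Psmb6 and Psmb7 cut the substrate. The cap binds ubiquitin chains, removes them and unfolds the substrate with a ring of ATPases. Interferon-gamma induces the activators Psme1 and Psme2 (PA28 alpha and beta), which can open the core in place of the cap, and Psmb8, Psmb9 and Psmb10, which replace the constitutive cutting subunits in the immunoproteasome that shapes peptides for MHC class I.

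Levels are CPM scaled by the trimmed mean of M values (TMM), and each library held between 27067349 and 31958793 estimated counts, so that 1 count was worth 0.0313 to 0.0369 CPM before that scaling. Tumor RNA held little of the epithelial keratins and adhesion genes listed as markers of the carcinoma. Epcam reached at most 1.18 CPM and Cdx2 and Vil1 stayed under 0.31 CPM, while Krt18 was at 13.2, 13.3 and 23.5 CPM in NaCl tumors and 8.31, 7.75 and 8.27 CPM in H89-treated tumors, without overlap (log2 fold change -1.04 ± 0.23, adjusted p = 0.0653). Of the 4 markers tested, the other 3 had log2 fold changes above 0: Krt8 (1.03 ± 0.86), Krt19 (2.56 ± 1.15) and Cdh1 (0.05 ± 0.45). They reached at most 2.84 CPM. Epcam, too low to be tested, was at 0.0912 to 1.18 CPM in H89-treated tumors and at most 0.0373 CPM in NaCl tumors. The 7 markers together summed to 15.0 to 26.5 CPM in NaCl tumors and 11.4 to 15.7 CPM in H89-treated tumors. Krt18 made up most of each sum, and the markers' part in the proteasome levels was not tested. These are whole tumors, in which fewer cells of a type and less RNA per cell cannot be told apart. The labels do not say whether replicates came from separate cages or batches. The p-values set each group difference against the spread between these tumors, which was estimated in part across genes. If a group shared a cage or batch, its effect cannot be told apart from that of treatment.

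H89-treated and NaCl tumors had close levels of most proteasome genes, and no member passed the test across all genes. At a Benjamini-Hochberg adjusted p under 0.05 by edgeR's quasi-likelihood test, 0 of the 47 members were called, beside 1.59% of the 13118 genes tested (208 genes, with 0.861% higher and 0.724% lower in H89-treated tumors). At an unadjusted p under 0.05, 7 of 47 members (14.9%) were called, beside 25% of all genes tested. They were 2 members higher in H89-treated tumors (Psme2b and Psmb11, beside 13.1% of all genes in that direction) and 5 lower (Psmd8, Psmd3, Psmd11, Psmd2 and Psmg3, beside 11.9%). DESeq2 on the same genes called 1 member higher and 1 lower after adjustment, and these were Psme2b (adjusted p = 0.00572) and Psmd8 (adjusted p = 0.00041). Over all genes, DESeq2 called 1396 of the 13118 tested.

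No member differed by more than 1 on the log2 scale, beside 3.19% of all genes. The largest difference upward was 0.84 for Psmb11 and the largest downward was -0.35 for Psmd8. The groups of 3 tumors did not overlap for 10 of 47 members (21.3%), beside 30.7% of all genes. The median pooled standard deviation between tumors of one group, on the log2 scale, was 0.12 for the 47 members, 0.15 for all genes tested and 0.13 for the 7759 genes that averaged at least 20 CPM.

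Of the 47 members, 31 had a log2 fold change of H89 against NaCl below 0, beside 49.4% of all genes. The median was -0.05 for members and 0.004 for all genes. This majority depended on the scaling and on single tumors. With total counts alone as the scale, 21 members were below 0 and 26 above, and the median of all genes moved to 0.075 and that of members to 0.012. Without H89 tumor 3, 22 were below 0 and 25 above, and without H89 tumor 1, 36 were below 0. The 5 members lower at an unadjusted p became 14 without H89 tumor 1, and 3, 2 and 1 without NaCl tumors 3, 2 and 1, and 1 without H89 tumor 2 or 3. The 2 members higher became 3 without H89 tumor 2 and 1 without any other tumor. Over all genes, in either direction, 3440 of 13079 were called without H89 tumor 1, beside 3285 of 13118 with all tumors. Without any other tumor the count over all genes was 2401 to 2833.

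**Figure D1:**
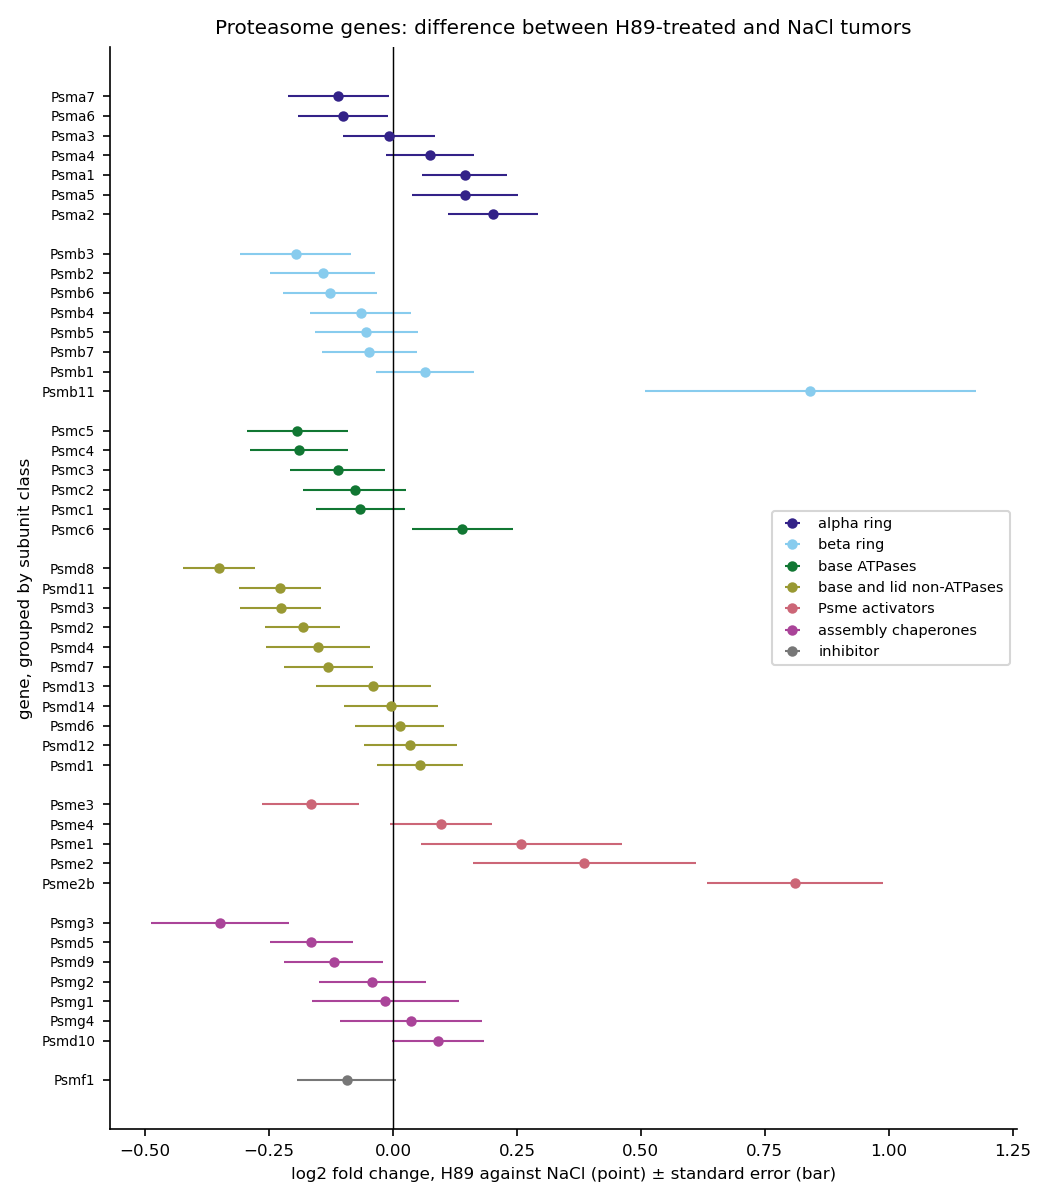
Log2 fold change of H89 against NaCl for the 45 tested proteasome genes (point, horizontal axis), with the standard error of the edgeR fit (bar), grouped by subunit class on the vertical axis. The points lie between -0.35 and 0.26, apart from Psme2 at 0.39, Psme2b at 0.81 and Psmb11 at 0.84.

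Levels of the 20S core differed little between groups, and none of its genes passed the test after adjustment. Of its 16 genes, 15 were tested, with a median log2 fold change of -0.05, 9 below 0 and 6 above, and 0 were called after adjustment. At an unadjusted p under 0.05, 1 of the 15 (Psmb11) was called, beside 25% of all genes. The alpha ring had a median of 0.07 (7 genes tested, 4 above 0) and the beta ring -0.06 (8 genes, 6 below 0). The sign of the alpha median held under the other 16 settings of the analysis, whereas the beta median became 0.006 with total counts alone and 0.002 without H89 tumor 3. Summed over its 7 tested genes, the alpha ring came to 792 ± 29.1 CPM under NaCl and 812 ± 75.0 CPM under H89 (SD, n = 3), and the groups overlapped.

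The alpha subunit with the smallest p was Psma2, an outer-ring subunit (chr13:14613240-14674236 on GRCm38). It stood at 83.0, 91.4 and 91.5 CPM in NaCl tumors 1 to 3 and at 112, 97.2 and 96.7 CPM in H89-treated tumors 1 to 3. Each treated tumor was above every control, and H89 tumor 1 was the highest. The log2 fold change was 0.20 ± 0.09 (SE), with an adjusted p of 0.213, and it was 0.03 after a correction for gene length and GC content. Psma1, singled out after its values were seen, was the other alpha gene without overlap, at 107, 104 and 103 CPM in NaCl tumors and 127, 109 and 111 CPM in H89-treated tumors (log2 fold change 0.14 ± 0.09, adjusted p = 0.328). In the other direction Psma6 had the smallest p, at 106, 114 and 119 CPM in NaCl tumors and 116, 102 and 98.9 CPM in H89-treated tumors, which overlapped (log2 fold change -0.10 ± 0.09, adjusted p = 0.525).

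The 3 constitutive cutting subunits had overlapping groups, and none passed the adjusted threshold. Psmb5, the chymotrypsin-like subunit, was at 85.4, 90.6 and 87.6 CPM in NaCl tumors and at 96.1, 83.7 and 74.2 CPM in H89-treated tumors. The treated tumors held both the highest and the lowest value, and the log2 fold change was -0.05 ± 0.10 (adjusted p = 0.779). Psmb6, the caspase-like subunit, was at 88.8, 94.2 and 91.5 CPM in NaCl tumors and 94.4, 79.9 and 77.3 CPM in H89-treated tumors, again with the extremes in the treated group (log2 fold change -0.13 ± 0.10, adjusted p = 0.438). Psmb7, the trypsin-like subunit, was at 97.8, 109.8 and 110.3 CPM against 113, 99.8 and 94.9 CPM (log2 fold change -0.05 ± 0.10, adjusted p = 0.785). H89 tumor 1 was the highest of the 6 tumors for each of the 3, and H89 tumor 3 the lowest.

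Among the other beta subunits, the structural Psmb3 had the smallest p downward. Its level was 125, 139.7 and 122 CPM in NaCl tumors and 129.7, 104.3 and 104.1 CPM in H89-treated tumors, and H89 tumor 1 lay within the range of the controls (log2 fold change -0.20 ± 0.11, adjusted p = 0.310). Of the 31-base words of its main transcript, 66.8% also occur in transcripts of other genes, so its reads could have been divided among them. The same holds for Psmb5, with 74.0% of its words shared. Psmb11, known as the thymus-specific beta subunit, was near the lower limit of the test, at 0.615, 0.662 and 0.538 CPM in NaCl tumors and 1.07, 0.726 and 1.48 CPM in H89-treated tumors. Its groups did not overlap, but the treated tumors spread by more than the distance between the groups' nearest values (log2 fold change 0.84 ± 0.33, adjusted p = 0.174). Psma8, the testis form of an alpha subunit, was listed at 0 in NaCl tumor 1 and at no more than 0.186 CPM in any tumor.

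Among the stretches of the genome that lie just before these genes, those of Psmb5 and Psmb6 are shown because each holds the antioxidant response element TGACNNNGC (capitals), a motif to which Nfe2l1 and Nfe2l2 are known to bind in proteasome promoters. The sequences are RefSeq's for GRCm38.p6 and end at the base before the annotated start, on the gene's strand. Psmb5 is at chr14:54617996-54618055 on the minus strand and Psmb6 at chr11:70525297-70525356 on the plus strand.
Psmb5: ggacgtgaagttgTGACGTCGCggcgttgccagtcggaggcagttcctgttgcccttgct
Psmb6: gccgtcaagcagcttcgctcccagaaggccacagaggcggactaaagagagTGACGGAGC

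Windows of 250 bases before to 50 bases after the start were found for 40 of the 52 members (44 windows). The element TGACNNNGC was present on either strand in 6 of the 44 windows (13.6%), of Psmb5, Psmb6, Psmc6, Psmd9, Psmd12 and Psme4, against 14.1% of the windows of all tested genes. The full cyclic AMP response element TGACGTCA, which CREB binds, was in 0 of 44 windows, against 2.89%. Its shorter form TGACG, which overlaps the first motif in Psmb5 and Psmb6, was in 19 of 44 (43.2%), against 29.6%. CCAAT was in 34.1% against 37.6%, and the GC box GGGCGG in 54.5% against 60.2%. A match is a description of letters, not a bound site.

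No gene of the 19S cap passed the adjusted threshold. Of 17 genes tested, 13 had a log2 fold change below 0, and the median was -0.11 (-0.04 to -0.18 over the other settings, and below 0 in each of the 16). The ATPases had a median of -0.09 (5 of 6 below 0), and the non-ATPases -0.13 (8 of 11 below 0). At an unadjusted p under 0.05, 4 of the 17 (23.5%) were called, beside 25% of all genes. Each was a non-ATPase with a lower level in H89-treated tumors, beside 11.9% of all genes in that direction. The same 4 had groups without overlap, beside 30.7% of all genes (15.5% lower). The summed level of the 17 genes was 2238 ± 38.8 CPM under NaCl and 2052 ± 137 CPM under H89 (SD, n = 3). H89 tumor 1, at 2208 CPM, lay within the range of the controls (2202 to 2279), and H89 tumors 2 and 3 were below it, at 1996 and 1953 CPM.

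Psmd8, a lid subunit (chr7:29174188-29180701, minus strand), had the smallest p of all members. It was at 214, 207 and 216 CPM in NaCl tumors and at 168, 167 and 165 CPM in H89-treated tumors. The treated tumors lay close together, and each was below every control. The log2 fold change was -0.35 ± 0.07, with a p of 0.0014 and an adjusted p of 0.0597 in edgeR's quasi-likelihood test. It was below 0 under each of the other 16 settings (-0.26 to -0.37). The adjusted p passed the threshold with DESeq2 (0.00041), with edgeR's robust option (0.0496), with limma (0.0474) and with limma after a correction for length and GC content (0.0435). With each tumor left out it was 0.0776 to 0.162, in fits that called 0 to 12 of all genes. Only 1.46% of the 31-base words of its main transcript occur in other genes.

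The other non-ATPases without overlap were chosen after their values were seen. Psmd3, a lid subunit, was at 187, 191 and 181 CPM in NaCl tumors and 171, 154 and 153 CPM in H89-treated tumors (log2 fold change -0.23 ± 0.08, adjusted p = 0.149). Psmd11, also of the lid, was at 128, 113 and 112 CPM against 101, 99.7 and 99.9 CPM (log2 fold change -0.23 ± 0.08, adjusted p = 0.15). Psmd2, the large base subunit, was at 275, 257 and 265 CPM against 237, 228 and 237 CPM (log2 fold change -0.18 ± 0.08, adjusted p = 0.189). Of the 31-base words of their main transcripts, 45.3% for Psmd2, 22.4% for Psmd11 and 0% for Psmd3 occur in other genes. Upward the smallest p belonged to Psmd1, the other large base subunit, at 169, 172 and 168 CPM against 192, 171 and 165 CPM, with a log2 fold change of 0.05 ± 0.09 and overlapping groups. The ubiquitin receptor Psmd4 and the deubiquitinase Psmd14, which acts at the entrance of the cap, had log2 fold changes of -0.15 ± 0.10 and -0.004 ± 0.10.

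Among the ATPases, Psmc4 had the smallest p downward, at 166, 172 and 171 CPM in NaCl tumors and 168, 143 and 135 CPM in H89-treated tumors (log2 fold change -0.19 ± 0.10, adjusted p = 0.272). Here too H89 tumor 1 lay among the controls while the other two treated tumors lay below them. Psmc6, the one ATPase above 0, was at 64.7, 75.9 and 82.9 CPM against 84.8, 81.4 and 80.1 CPM, so that the difference rested mainly on NaCl tumor 1 (log2 fold change 0.14 ± 0.10, adjusted p = 0.423). Without that tumor the log2 fold change was 0.05.

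**Figure D2:**
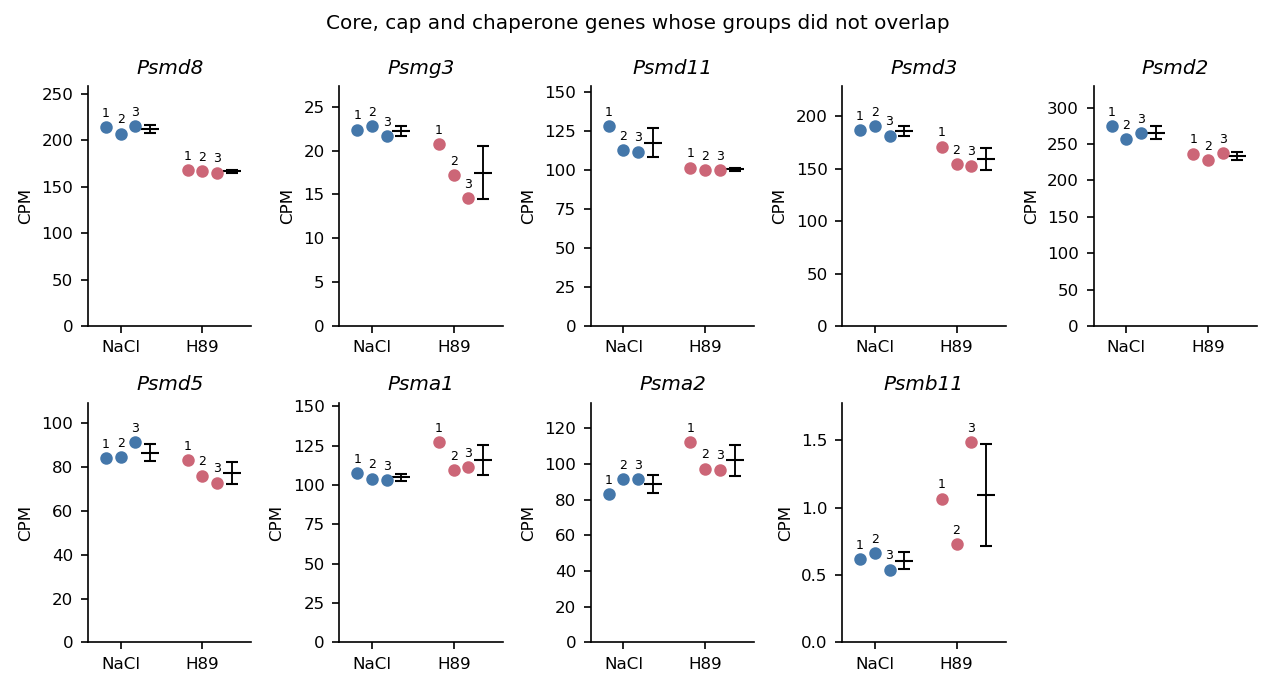
CPM (vertical axis, from 0) of the 9 core, cap and chaperone genes whose NaCl and H89-treated tumors did not overlap, with each tumor as a numbered point and the mean ± SD of 3 tumors beside it. In Psmd8 the 3 treated tumors sit together at 165 to 168 CPM, under controls at 207 to 216 CPM.

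**Figure D3:**
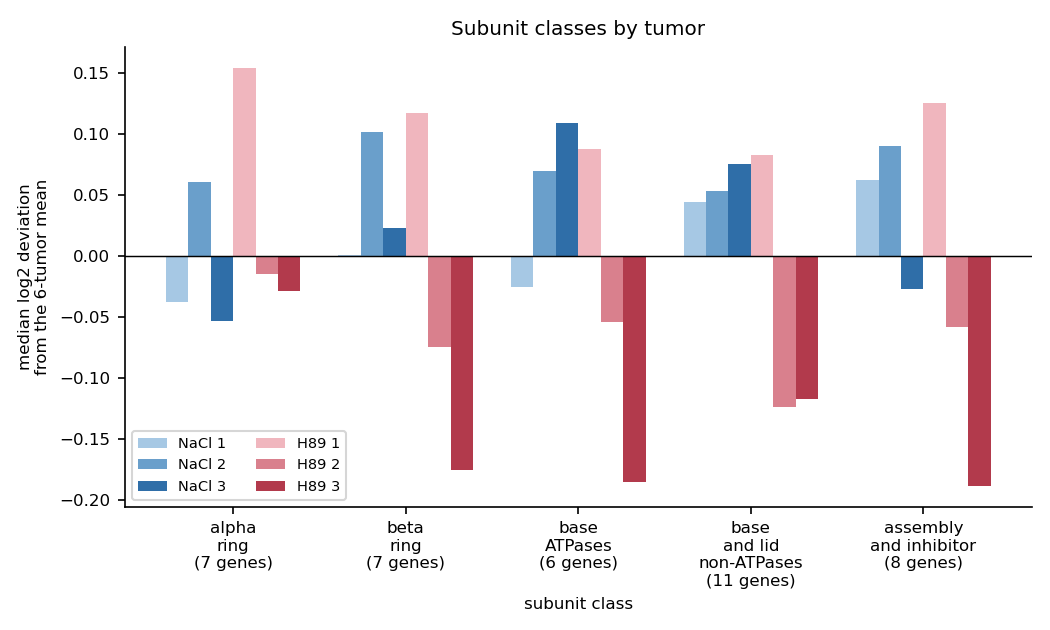
Median log2 deviation of each subunit class from its mean over the 6 tumors (vertical axis, bars from 0), 1 bar per tumor, with Psmb11 left out of the beta ring and the Psme activators not drawn. H89 tumor 1 is above 0 and H89 tumors 2 and 3 are below 0 in each of the 5 classes drawn.

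The tumors of the H89 group were not alike in their core and cap levels, as the plot of classes by tumor shows. The median deviation of the alpha ring was 0.15 in H89 tumor 1 and -0.01 and -0.03 in H89 tumors 2 and 3, and that of the beta ring was 0.12, -0.07 and -0.17. The skeletal muscle markers (Acta1, Myh4, Ckm and Tnnt3) summed to 16.7 CPM in H89 tumor 1 and to at most 1.73 CPM in any other tumor. Their part in the proteasome levels was not tested.

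The Psme activators were the class whose median stood farthest above 0, at 0.26, with 4 of 5 above 0, and 0 of 5 passed the adjusted threshold. The median was above 0 under the other 16 settings (0.15 to 0.43). Psme1 (chr14:55578123-55581529, plus strand) and Psme2 (chr14:55587441-55591113, minus strand) lie next to each other. Psme1 was at 212, 204 and 139 CPM in NaCl tumors and at 260.0, 167 and 237 CPM in H89-treated tumors. H89 tumor 2 lay within the controls, and NaCl tumor 3 was the lowest of all (log2 fold change 0.26 ± 0.20, adjusted p = 0.458). Psme2 was at 177, 177 and 110.5 CPM against 244, 150.5 and 214 CPM, with the same overlap (log2 fold change 0.39 ± 0.23, adjusted p = 0.323). Without NaCl tumor 3 the log2 fold changes were 0.09 for Psme1 and 0.19 for Psme2, and without H89 tumor 2 they were 0.43 and 0.56. The ratio of Psme1 to Psme2 in CPM was 1.19, 1.15 and 1.26 in NaCl tumors and 1.07, 1.11 and 1.11 in H89-treated tumors. It was lower in each treated tumor than in every control, and this difference was not tested. For single genes, the groups did not overlap in 30.7% of all genes tested. Of the 31-base words of Psme2, 66.2% also occur in Psme2b, so the ratio depends on how reads were divided.

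The immunoproteasome genes, which were set aside from the members, ordered the tumors nearly as Psme1 and Psme2 did. Psmb8 was at 134, 111 and 51.6 CPM in NaCl tumors and at 217, 101 and 198 CPM in H89-treated tumors (log2 fold change 0.80 ± 0.38, adjusted p = 0.231). Psmb9 (0.86 ± 0.44, adjusted p = 0.259) and Psmb10 (0.67 ± 0.37, adjusted p = 0.293) had H89 tumors 1 and 3 highest, H89 tumor 2 just below NaCl tumor 2, and NaCl tumor 3 lowest. Per length, Psmb8 made up 37.1% ± 11.2 of Psmb5 and Psmb8 together in NaCl tumors and 51.7% ± 10.4 in H89-treated tumors (SD, n = 3). Psmb9 made up 30.6% ± 12.2 and 46.8% ± 11.0 with Psmb6, and Psmb10 44.7% ± 12.5 and 57.0% ± 9.04 with Psmb7. In each pair NaCl tumor 3 had the lowest share, and the groups overlapped.

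Other interferon-induced genes and T cell markers varied between the same tumors, and none passed the adjusted threshold. Irf1, an interferon-induced transcription factor, was at 117, 107 and 56.9 CPM in NaCl tumors and 185, 131 and 214 CPM in H89-treated tumors, lowest in NaCl tumor 3 (log2 fold change 0.92 ± 0.28, adjusted p = 0.106). Tap1, a peptide transporter, was at 198, 166 and 76.7 CPM against 288, 175 and 321 CPM (log2 fold change 0.83 ± 0.35, adjusted p = 0.188), and B2m, the light chain of MHC class I, at 2283, 2030 and 1609 CPM against 2831, 2154 and 2735 CPM (log2 fold change 0.38 ± 0.16, adjusted p = 0.183). The 4 T cell markers Cd3e, Cd3d, Cd8a and Cd4 summed to 7.01 to 14.6 CPM in NaCl tumors and 14.6 to 34.4 CPM in H89-treated tumors, lowest in NaCl tumor 3 and highest in H89 tumor 3. None of the 4 was at 0 in any tumor, and each had overlapping groups (adjusted p from 0.104 for Cd8a to 0.277 for Cd4). The macrophage markers summed to 1196 to 1789 CPM in NaCl tumors and 1279 to 1620 CPM in H89-treated tumors. The fibroblast markers summed to 2159 to 2433 and 2439 to 3121 CPM, the endothelial ones to 74.5 to 126 and 62.8 to 94.6 CPM, the keratinocyte ones to 2.01 to 3.47 and 2.98 to 3.64 CPM, and the proliferation genes to 772 to 861 and 838 to 942 CPM. The part of these cells in the Psme and immunoproteasome levels was not tested.

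**Figure D4:**
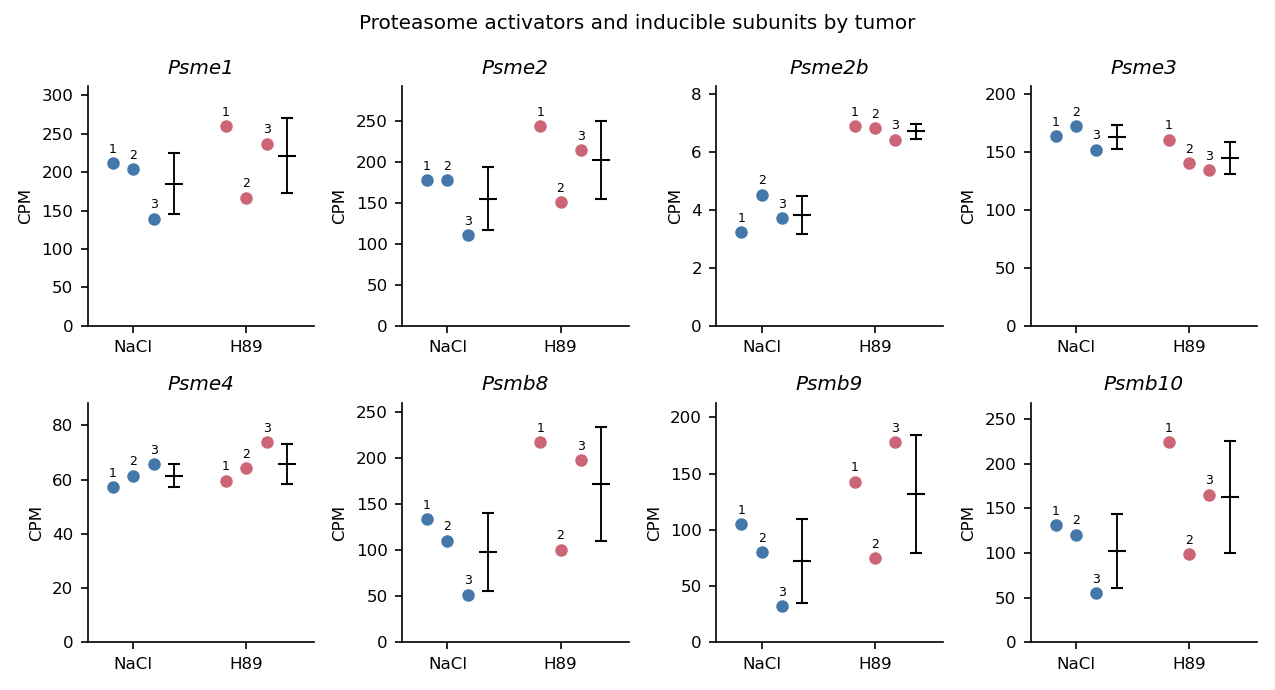
CPM (vertical axis, from 0) of the 5 Psme activators and the 3 immunoproteasome subunits in each tumor (numbered points), with the mean ± SD of 3 tumors per group beside them. Psme1, Psme2, Psmb8, Psmb9 and Psmb10 have H89 tumor 2 within the NaCl range, whereas the treated tumors of Psme2b, at 6.42 to 6.90 CPM, lie above the controls.

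The start of Psme1 is shown because the core of an interferon-stimulated response element, GAAA repeated after a gap of 2 bases and here read on the opposite strand (capitals), lies just inside it. The 30 bases begin at RefSeq's start of the gene, at chr14:55578494-55578523 on the plus strand.
Psme1: gagctgtgcTTTCGCTTTCccttcccgctg
This core was in 5 of the 44 member windows (11.4%), of Psme1, Psmb3, Psmd4, Psmd9 and Psmg4, against 3.31% of the windows of all tested genes. The interferon-gamma activated sequence TTCNNNGAA was in 2 of 44 (4.55%), against 7.10%. Of the 5 genes with the response element core, Psme1 and Psmg4 had log2 fold changes above 0, and Psmb3, Psmd4 and Psmd9 below 0.

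Psme2b, a single-exon gene closely alike Psme2 (chr11:48945354-48946190, minus strand), had the largest log2 fold change among the activators. It was at 3.22, 4.53 and 3.71 CPM in NaCl tumors and at 6.90, 6.83 and 6.42 CPM in H89-treated tumors, from 89.7 to 225 estimated counts per tumor. The groups did not overlap, and the order of the tumors was not that of Psme2. The log2 fold change was 0.81 ± 0.18 with an adjusted p of 0.0629 (edgeR). The adjusted p was 0.00572 with DESeq2 and 0.0396 with limma after a correction for length and GC content, and 0.0896 to 0.179 with each tumor left out.

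Reads of Psme2 and Psme2b are hard to tell apart, which the sequences show. Their coding sequences are each 720 bases and 715 bases are identical (99.3%), by GENCODE M21. The stretch from base 394 to base 543 of the coding sequence holds 3 of the 5 differences, in capitals.
Psme2: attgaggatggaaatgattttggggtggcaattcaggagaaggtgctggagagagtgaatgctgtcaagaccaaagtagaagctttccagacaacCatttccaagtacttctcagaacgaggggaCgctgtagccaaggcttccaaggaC
Psme2b: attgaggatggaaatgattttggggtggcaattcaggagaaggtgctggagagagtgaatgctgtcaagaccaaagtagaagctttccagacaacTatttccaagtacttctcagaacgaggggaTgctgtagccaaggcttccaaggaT
From Psme2 to Psme2b these are C489T, C519T and C543T, counted from 1 at the A of the start codon, and the other two are C312T and A369G. Of the 31-base words of Psme2b, 76.5% occur in Psme2, and Psme2b's estimated level was 1.82% to 4.53% of that of Psme2. Its exons also overlap 9930111J21Rik1 on the same strand, which had a log2 fold change of 0.87 ± 0.29 (adjusted p = 0.129). Psme2b's level is therefore uncertain.

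The activators that interferon is not known to induce did not share this pattern. Psme3 (PA28 gamma), the nuclear activator, was at 164, 173 and 152 CPM in NaCl tumors and 161, 141 and 134.5 CPM in H89-treated tumors, overlapping (log2 fold change -0.17 ± 0.10, adjusted p = 0.327). Psme4 (PA200) was at 57.3, 61.5 and 65.7 CPM against 59.5, 64.1 and 73.7 CPM (log2 fold change 0.10 ± 0.10, adjusted p = 0.589). Psmf1 (PI31), named an inhibitor of the core, was at 58.0, 58.5 and 50.7 CPM against 57.4, 51.1 and 48.2 CPM (log2 fold change -0.09 ± 0.10, adjusted p = 0.591).

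The assembly chaperones, which help the rings and the base to form, had a median log2 fold change of -0.04, with 5 of 7 below 0, and 0 were called after adjustment. Psmg3, a chaperone of the alpha ring (chr5:139823592-139826885, minus strand), was at 22.4, 22.8 and 21.6 CPM in NaCl tumors and at 20.7, 17.2 and 14.6 CPM in H89-treated tumors. Each treated tumor was below every control, and they were more scattered than the controls (log2 fold change -0.35 ± 0.14, adjusted p = 0.175). Its exons overlap Gm26938 on the same strand, with 24.4% of its words shared. Psmd5, a chaperone of the base, was the other without overlap (84.2, 84.6 and 91.3 CPM against 83.1, 76.1 and 72.9 CPM, adjusted p = 0.259). Upward the smallest p was that of Psmd10 (gankyrin), at 27.2, 26.1 and 25.3 CPM against 30.2, 26.3 and 27.2 CPM (log2 fold change 0.09 ± 0.09, adjusted p = 0.579).

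Levels between genes were compared per length, as CPM per kilobase of the main transcript and averaged over the 6 tumors. They depend on which transcript is taken as the main one, such as 2911 bases for Psma2 and 914 for Psma7. The alpha ring ran from 32.7 for Psma2 to 178 for Psma7 and the beta ring, without Psmb11, from 89.9 for Psmb7 to 165 for Psmb4. The ATPases ran from 35.0 for Psmc6 to 110.4 for Psmc4, and the non-ATPases from 33.5 for Psmd13 to 123 for Psmd8. Assembly chaperones ran from 15.9 for Psmd9 to 44.7 for Psmg4, with a median of 18.9, below the medians of 91.9, 109.9, 68.5 and 68.5 for the alpha ring, the beta ring, the ATPases and the non-ATPases, although Psmg4 was above several core and cap genes. The inhibitor Psmf1 stood at 14.2. Psme2 was the highest of the members at 186, and Psme2b was at 6.29.

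The remaining members matched by name only or were pseudogenes. Psmc3ip, a recombination factor, had a log2 fold change of -0.08 ± 0.19, and Psme3ip1 of -0.05 ± 0.10. Psma5-ps was listed at 0 in all 6 tumors. Psmb6-ps reached 0.037 CPM in 1 tumor, Psmb5-ps at most 0.178 CPM and Psmb7-ps2 0.224 to 0.463 CPM.

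Proteasome genes and partners with other names were read from a list of 27 genes in the table. It includes parts of the cap, its deubiquitinases, and genes that deliver ubiquitin, assemble the core or drive proteasome transcription. After adjustment 0 of the 27 were called, and at an unadjusted p under 0.05 the count was 5 (18.5%, beside 25% of all genes). All 5 were lower in H89-treated tumors, beside 11.9% of all genes in that direction. In that list 22 of 27 had a log2 fold change below 0, beside 49.4% of all genes, with a median of -0.15. The groups did not overlap for 12 (44.4%, beside 30.7% of all genes), 11 of them lower, beside 15.5%. Whether the list's lower majority depended on the scaling was not tested. The smallest p belonged to Nfe2l1, the transcription factor that raises proteasome genes when the protease is short, at 255, 216 and 236 CPM in NaCl tumors and 161, 171 and 195 CPM in H89-treated tumors. Each treated tumor was below every control (log2 fold change -0.42 ± 0.11, adjusted p = 0.0800). With DESeq2, which called 1396 of the 13118 genes tested, its adjusted p was 0.0082. The adjusted p was 0.0688 with edgeR's robust option, 0.0722 with limma, 0.120 with quantile normalization and 0.129 with total counts alone. The others included Sem1, a small cap subunit (-0.31), Ubb, a ubiquitin gene (-0.27), and Nploc4, a cofactor of the unfoldase Vcp (-0.23), which were named after their values were seen. In the other direction the smallest p was that of Usp14, a deubiquitinase of the cap, at 87.2, 89.4 and 87.4 CPM against 98.7, 96.0 and 95.4 CPM (log2 fold change 0.14 ± 0.07, adjusted p = 0.264).

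**Figure D5:**
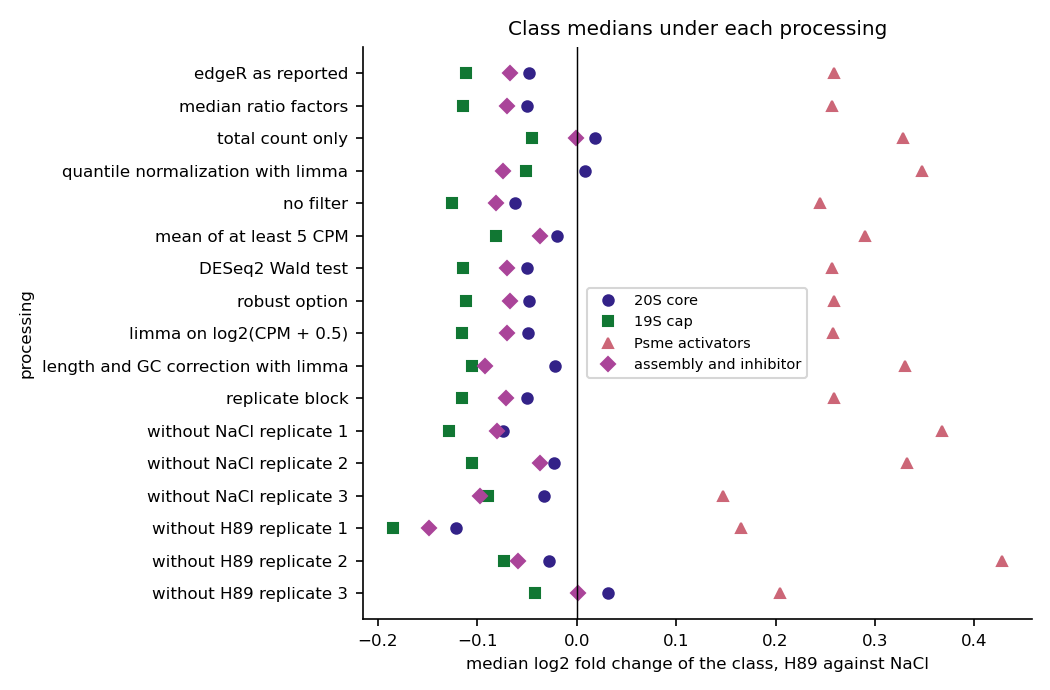
Median log2 fold change of H89 against NaCl (horizontal axis) for the 20S core, the 19S cap, the Psme activators and the assembly and inhibitor genes under each setting of the analysis (vertical axis). The Psme median stays above 0 (0.15 to 0.43) and the cap median below 0 (-0.04 to -0.18), while the core median lies on either side of 0.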

How the data were processed

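The authors extracted RNA from frozen tumors with Trizol and sequenced it on a BGISEQ-500 instrument. Per the labels, the processing names kallisto, DESeq2 and the build GRCm38, with no versions. The authors deposited 1 table called TPM, but its values were read as estimated counts per gene, since they sum to 27067349 to 31958793 per tumor and 58.6% to 61.4% of values above 0 lie within 0.01 of a whole number. kallisto divides reads among alike transcripts, so genes with near copies are uncertain. Only gene columns of the 6 tumors were used. Groups and replicate numbers came from the labels.

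Counts were rounded. The test was edgeR's quasi-likelihood test (version 4.0.16, R 4.3.3, TMM, glmQLFit and glmQLFTest) with treatment alone in the model, over genes that averaged at least 0.5 CPM, with Benjamini-Hochberg adjustment over 13118 genes. Standard errors were derived from each log2 fold change and the square root of its F statistic. Exact permutation of 3 against 3 cannot go below p = 0.1. Alternatives were other scalings, filters, DESeq2 1.42.0, limma 3.58.1 on log2(CPM + 0.5), a length and GC correction, a block for the replicate number, and fits that each lacked 1 tumor. Scripts were tested on simulated data. Positions are GENCODE M21 on GRCm38, and promoter windows RefSeq's on GRCm38.p6.

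Members, lists and tests were chosen with earlier results of these data known. Named with values in every tumor were Psmb5, Psmb6, Psmb7, the Psme genes, Psmf1, the gene with the smallest p in each direction of each class, Psma8 and Psmb11. The 3 immunoproteasome genes and, of the partner list, the smallest p in each direction were added. The marker lists covered carcinoma, T cell, macrophage, fibroblast, endothelial, keratinocyte, skeletal muscle, proliferation and interferon genes. Some items of these lists are not reported here.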

Additional observations from a re-analysis of the deposited data

How the results depend on the processing

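No member passed the adjusted threshold with edgeR under other scalings or filters, with a replicate block or with any tumor left out, nor with quantile normalization and limma. Of all genes, 88 to 311 passed under these scalings and filters, 0 with the replicate block and 0 to 12 with a tumor left out. The block and the fits that lacked a tumor therefore say little about the members. DESeq2 and the length and GC correction with limma called 1 higher and 1 lower, and edgeR's robust option and limma on log2(CPM + 0.5) called 1 lower. Over all genes these 4 settings called 1396, 670, 309 and 261, in that order. Members higher at an unadjusted p, 2 as reported, were 4 with total counts alone, 1 with DESeq2 and 1 with limma, and 1 to 3 with a tumor left out. Those lower, 5 as reported, were 1 with total counts alone, 2 with quantile normalization, 8 with the length and GC correction, and 1 to 14 with a tumor left out. Over all genes, in either direction, 3285 were called as reported, 3197 with total counts alone and 2746 with quantile normalization. The count was 3211 with DESeq2, 3295 with limma, 3803 of 12920 with the length and GC correction, and 2401 to 3440 with a tumor left out. With the replicate number as a block, 1 member was higher and 5 were lower, beside 3750 of all genes called. The labels do not say whether the numbers pair the tumors. Deviations of same-numbered tumors correlated at 0.16, 0.06 and -0.02, and not every tumor correlated best with its own number. With 3 tumors per group these values show no pairing but cannot exclude it. Psmb5 turned to 0.012 with total counts alone, 0.052 with the length and GC correction and 0.032 without H89 tumor 3 (-0.15 to 0.032 with a tumor left out). Psmb7 turned to 0.018 with total counts alone, 0.0054 with quantile normalization and 0.0033 without H89 tumor 3 (-0.12 to 0.0033). The length and GC correction also turned Psme4 to -0.044, Psmc6 to -0.046, Psmd1 to -0.033, Psmd10 to -0.0035 and Usp14 to -0.054, and Psmd1 was -0.013 without H89 tumor 1 (-0.013 to 0.097). The cause was not tested. Class medians moved by less than their spread between tumors, though the core median was 0.018 with total counts alone, 0.0083 with quantile normalization and 0.032 without H89 tumor 3.

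Genes under about 1 CPM, such as Psmb11, rest on few counts. The number of tumors, 3 per group, limits precision, and a p that misses the threshold does not show that levels were equal.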
